A study of Equus caballus with 6 samples.

Results

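The respiratory chain of the mitochondrion was followed in the inner cell mass (ICM) and trophectoderm (TE) of the horse blastocyst, with its nuclear and its mitochondrially encoded subunits kept apart. Nuclear members were the rows of the deposited table whose gene symbol begins as a subunit name of complex I (NDUFA, NDUFB, NDUFC, NDUFS and NDUFV), complex II (SDHA to SDHD), complex III (UQCR genes and CYC1), complex IV (COX4 to COX8) or complex V (ATP5 genes). Mitochondrial members were the protein-coding rows on chromosome MT. This gave 64 nuclear and 13 mitochondrial genes, 77 of 12270 in all. The names also took in 3 rows that are not subunits as such: COX7A2L, which helps to assemble supercomplexes, and ATP5S and ATP5SL. All 3 stay in the counts of complexes IV and V below. NDUFA4 is kept with complex I by its name, although its protein is now known to sit in complex IV.

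Libraries were made from 3 ICM (15, 22 and 25) and 3 TE (16, 23 and 24) of day 8 blastocysts recovered from superovulated mares. ICM is the inner group of cells that forms the embryo and yolk sac endoderm, and TE is the outer epithelium that builds the placenta. All blastocysts were treated with Pronase, and RNA of single pieces was amplified as cDNA before library construction. ICM was cleaned by immunosurgery and TE was cut off by hand, so tissue and isolation method cannot be told apart in any comparison below. No genotype, strain or treatment separates the groups. Mares are not named and the labels pair no ICM with a TE, so the p-values given here reflect library-to-library spread, part of which may be technical.

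Oxidative phosphorylation is shared between 2 genomes. Complex I takes electrons from NADH and complex II from succinate, complex III passes them to cytochrome c, complex IV hands them to oxygen, and complex V, the ATP synthase, uses the proton gradient that complexes I, III and IV build. Most subunits are made in the cytosol from nuclear genes, while the mitochondrial genome encodes core subunits of complexes I, III, IV and V and none of complex II. Mitochondrial genes are transcribed as long precursors from both strands and then cut into single mRNAs. In mouse blastocysts TE is known as the tissue that consumes more oxygen and makes more ATP, while the inner cells respire less.

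The table held 6526212 to 10686659 reads a library. Marker genes of the labelled tissues were present: the 9 TE markers in the table summed to 52.0 to 84.7 RPKM (a read count divided by gene length in kilobases and by library depth) in ICM and 160 to 200.8 RPKM in TE, and the 8 epiblast markers to 69.0 to 177 RPKM in ICM and 57.6 to 81.8 RPKM in TE. SOX2, which defines the epiblast, was at 0 in all 3 TE libraries, and NANOG reached at most 0.16 RPKM there. POU5F1 was present in both, at 93.1, 101.6 and 36.0 RPKM in ICM 15, 22 and 25 and 45.7, 33.2 and 53.6 RPKM in TE. DPPA4 and LIN28A also overlapped between the tissues, while KLF4, GDF3 and PRDM14 were higher in every ICM library than in any TE library. The 9 hypoblast markers summed to 41.0 to 101 RPKM in ICM and 37.6 to 43.8 RPKM in TE. ICM 25 stood apart from the other ICM libraries in these sums. Its epiblast markers summed to 69.0 RPKM, against 177 and 172 RPKM in ICM 15 and 22. Its hypoblast markers summed to 41.0 RPKM, against 101 in each of these. In ICM 25, KLF4 and GDF3 lay between ICM 15 and 22 and BMP2 lay above both. The other markers of these lists lay below both. Of markers of maternal blood, endometrium and cumulus cells, 3 of 8, 1 of 7 and 2 of 6 were in the table. Their summed levels were 4.77 to 9.90 RPKM in ICM and 11.9 to 20.8 RPKM in TE for blood, 0.37 to 1.64 RPKM in ICM and 0.34 to 0.45 RPKM in TE for endometrium, and 5.39 to 33.0 RPKM in ICM, highest in ICM 25, and 5.67 to 19.2 RPKM in TE for cumulus cells. Most of the blood sum was LCP1 (10.8, 19.7 and 13.7 RPKM in TE 16, 23 and 24). Most of the cumulus sum was CYP19A1 (26.1 RPKM in ICM 25 and 19.1 RPKM in TE 16). Whether LCP1 and CYP19A1 came from the embryo or from cells around it was not tested. The part of any of these cell types in the results below was not tested either. In tissue pieces such as these, fewer cells of a type and less RNA per cell cannot be told apart.

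Mitochondrially encoded subunits included the row with the highest mean level in the table, MT-CO1, and all 13 had a lower fitted mean in ICM than in TE (11 with quantile normalization), beside 64.7% of all genes tested. None passed the test between the tissues (limma on log2(RPKM + 1), adjusted p at 0.05 over 9436 genes; lowest adjusted p of the 13, 0.18), where 1.87% of all genes tested did, 0.933% in each direction. Their median log2 difference (ICM minus TE) was -0.44, beside -0.15 over all genes tested. At an unadjusted p under 0.05, 2 of the 13 were lower in ICM and 0 higher, beside 11.6% and 5.28% of all genes. Limma's voom on recovered reads called 0 of the 13, and 1.32% of all genes.

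MT-CYB is the cytochrome b of complex III and the only subunit of that complex made in the mitochondrion. Its row runs from 14188 to 15327 on chromosome MT, in the table's coordinates, for which no build is named. MT-CYB had the widest log2 difference of the 77 genes in the main fit of log2(RPKM + 1). It stood at 2718, 2790 and 4427 RPKM in ICM 15, 22 and 25 and at 5430, 5355 and 8957 RPKM in TE 16, 23 and 24. The tissues did not overlap, and ICM 25 was the highest of its group, as TE 24 was of its own. The log2 difference was -0.99 (SE 0.33, limma adjusted p = 0.18). Without ICM 25 it was -1.21 (limma adjusted p = 0.059). With quantile normalization it was -0.48, smaller than the -0.70 of UQCRC1.

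MT-CO1, the catalytic subunit of complex IV that holds its haem groups, was the gene with the highest mean RPKM of all 12270 rows. Its levels were 10652, 9254 and 10905 RPKM in ICM and 14755, 12720 and 14488 RPKM in TE, again without overlap. The log2 difference was -0.45 (SE 0.26, limma adjusted p = 0.43). MT-CO2, which receives electrons from cytochrome c, had 1807, 1935 and 1991 RPKM in ICM and 2353, 2270 and 2402 RPKM in TE. MT-CO3, the third core subunit, had 2499, 3335 and 3379 RPKM in ICM and 3652, 3417 and 5402 RPKM in TE. On the deposited scale all 3 complex IV genes of the mitochondrion therefore separated the libraries by tissue, with log2 differences of -0.29 to -0.45. Beside them, 17.8% of all genes tested lay lower in ICM without overlap. With median of ratios rescaling 0 of the 13 mitochondrial genes were without overlap. With quantile normalization MT-CO3 turned to 0.042.

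Of the 7 complex I subunits of the mitochondrion, which form its membrane arm, 3 had no overlap between the tissues, where 17.8% of all genes tested lay lower in ICM without overlap (0 of the 7 after median of ratios rescaling). MT-ND5, at the far end of the arm, had 940, 1045 and 1170 RPKM in ICM and 1470, 1395 and 2085 RPKM in TE (log2 difference -0.63 with an SE of 0.27, limma adjusted p = 0.28). MT-ND4 had 1517, 1757 and 1883 RPKM in ICM and 2122, 2199 and 2606 RPKM in TE. The small MT-ND4L had 238, 285 and 227 RPKM in ICM and 361, 298 and 414 RPKM in TE. These 3 lie next to each other on the mitochondrial genome, and ND4L and ND4 overlap by 7 bases.

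The remaining complex I genes overlapped. MT-ND1, next to the quinone site, had 3042, 2350 and 2039 RPKM in ICM and 3939, 3011 and 3069 RPKM in TE. MT-ND2 had 1718, 1292 and 1095 RPKM in ICM and 2625, 1404 and 1192 RPKM in TE, a wide range in both tissues. MT-ND3 was by far the lowest of the 13, at 32.3, 30.8 and 24.2 RPKM in ICM and 34.7, 29.1 and 63.9 RPKM in TE. MT-ND6, the only one of the 13 genes encoded on the light strand, had 142, 256 and 120 RPKM in ICM and 191, 170 and 339 RPKM in TE. ND6 shares 17 bases with ND5 on the opposite strand, and strandedness is not stated, so reads there cannot be assigned to either gene.

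The ATP synthase subunits made in the mitochondrion both lacked overlap on the deposited scale. Beside them, 17.8% of all genes tested lay lower in ICM without overlap. With median of ratios rescaling both overlapped. ATP8 had 260, 280 and 224 RPKM in ICM and 389, 290 and 579 RPKM in TE, and MT-ATP6, which forms the proton channel with the c ring, had 1988, 1732 and 2092 RPKM in ICM and 2635, 2440 and 2705 RPKM in TE. Their frames overlap by 43 bases, so the 2 rows are not independent. In the authors' deposited table ATP8 had a DESeq adjusted p of 0.020, the only one of the 13 under 0.05, where 16.6% of the table's genes were.

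**Figure D1:**
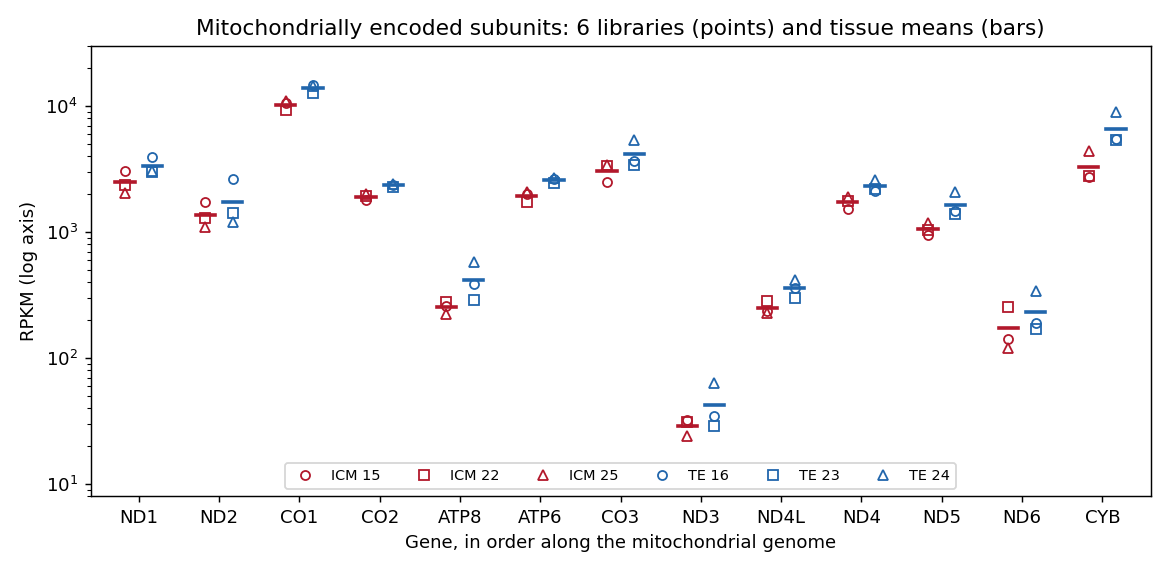
RPKM (log axis) of the 13 mitochondrially encoded subunits in gene order, with 1 point a library and a bar at each tissue mean, ICM left of TE. All 13 ICM means lie below the TE means on the deposited scale (11 with quantile normalization). On the deposited scale 9 genes show no overlap between the tissues, where 17.8% of all genes tested lay lower in ICM without overlap. With median of ratios rescaling 0 of the 13 do.

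In all, 9 of 13 mitochondrial genes, 69.2%, lay lower in every ICM library than in any TE library, where 17.8% of all genes tested did so, and none lay higher, beside 6.81%. The 13 rows come from shared precursors and are not 13 separate measurements. This separation depended on how libraries were scaled. With median of ratios rescaling 0 of the 13 were without overlap. All 13 still had lower means in ICM, and with quantile normalization 11 did, MT-CO3 and MT-ND1 turning.

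As a share of all reads in the table, the 13 genes took 10.1%, 8.60% and 12.9% in ICM 15, 22 and 25 and 13.9%, 12.3% and 13.5% in TE 16, 23 and 24. ICM averaged 10.52% ± 2.17 and TE 13.2% ± 0.85 (SD, n = 3 each). The difference of -2.72 percentage points was not past the threshold in an exact permutation test over libraries (two-sided p = 0.2, where 3 against 3 allows 0.1 at the lowest). The overlap came from ICM 25, whose share was above that of TE 23. The difference was -3.90 points without ICM 25 and -1.76 without ICM 22. As a share of summed RPKM the mean was 11.8% ± 2.37 in the 3 ICM and 15.03% ± 0.72 in the 3 TE libraries, which did not overlap (exact permutation p = 0.1).

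**Figure D2:**
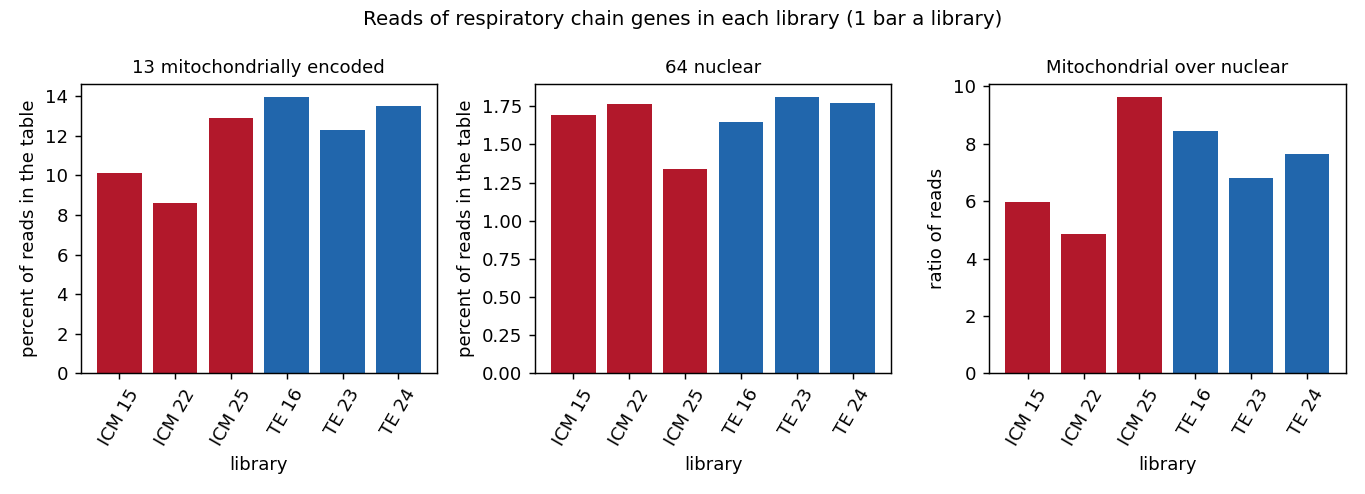
Reads of the 13 mitochondrial and of the 64 nuclear genes as a percentage of all reads in the table, and the ratio of these sums, 1 bar a library, ICM in red and TE in blue. ICM 25 has the lowest nuclear share (1.34%) and the highest ratio (9.62).

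The makeup of the mitochondrial signal varied between libraries of the same tissue. MT-CO1 made up 50.2%, 46.4% and 47.7% of mitochondrial reads in ICM 15, 22 and 25 and 47.8%, 47.01% and 42.8% in TE 16, 23 and 24. MT-CYB, at the end of the heavy-strand transcript, made up 9.44%, 10.3% and 14.3% in ICM and 12.99%, 14.6% and 19.5% in TE. MT-ND2, near its start, ran the other way within each tissue, so that the CYB to ND2 ratio of RPKM was 1.58, 2.16 and 4.04 in ICM and 2.07, 3.81 and 7.52 in TE.

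This ratio differed more between libraries of 1 tissue than between the tissue means (2.59 ± 1.29 in ICM and 4.47 ± 2.78 in TE, SD, n = 3 each, exact permutation two-sided p = 0.5). Without MT-CYB the other mitochondrial genes made up 9.29% ± 1.67 of all reads in the 3 ICM libraries and 11.2% ± 0.85 in the 3 TE libraries (exact permutation p = 0.3).

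**Figure D3:**
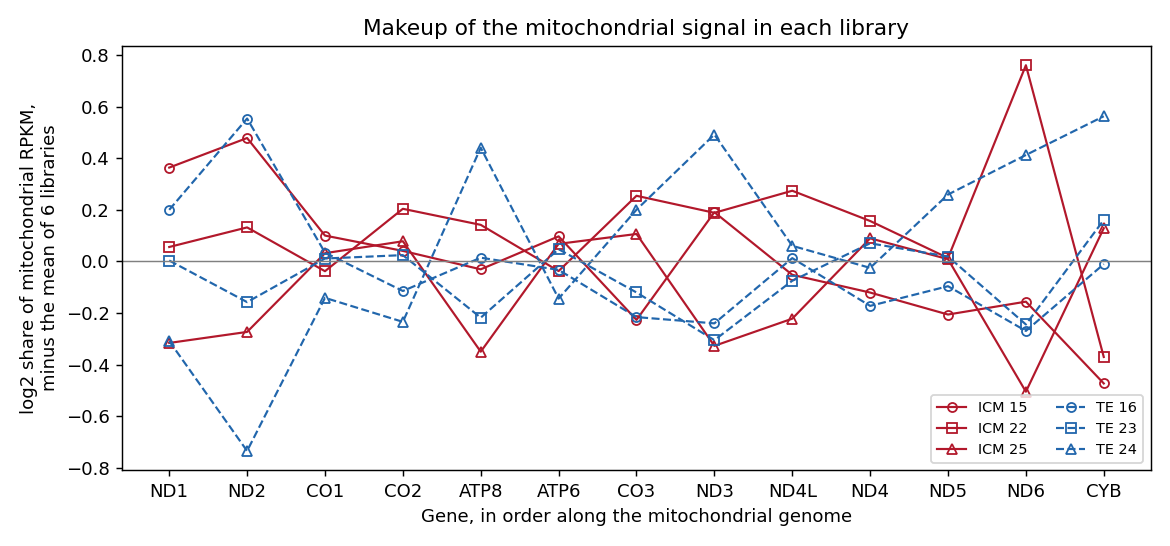
Share of each gene in the mitochondrial RPKM of its library, on the log2 scale minus the mean of the 6 libraries, in gene order (ICM solid red, TE dashed blue). ICM 15 and TE 16 are the highest libraries at ND1 and ND2, and TE 24 is the lowest at ND2 (-0.73) and the highest at CYB (0.56).

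Nuclear subunits had a median difference close to that of all genes. Of the 64, 62 passed the filter on low values, and their median log2 difference was -0.19, beside -0.15 over all genes tested. None was called (limma, lowest adjusted p = 0.12), and none by voom. With library weights 1 was called, NDUFB1, where 8.05% of all genes were. At an unadjusted p under 0.05, 6 of the 62 were lower in ICM (against 11.6% of all genes tested) and 0 higher (against 5.28%). Without overlap, 9 of 62 were lower in ICM (14.5%, against 17.8% of all genes tested) and 0 higher (against 6.81%). The number lower in ICM is near the background, so it is no result about the nuclear subunits.

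As a share of all reads, the 64 genes took 1.69%, 1.77% and 1.34% in ICM 15, 22 and 25 and 1.65%, 1.81% and 1.77% in TE 16, 23 and 24. The means were 1.60% ± 0.23 in ICM and 1.74% ± 0.08 in TE (SD, n = 3 each; two-sided exact permutation p = 0.5). The difference of -0.14 percentage points was -0.012 without ICM 25 and -0.23 without ICM 22. The ratio of mitochondrial to nuclear subunit reads was 5.96, 4.86 and 9.62 in ICM and 8.45, 6.80 and 7.63 in TE, with means of 6.81 ± 2.49 in ICM and 7.63 ± 0.83 in TE (exact permutation p = 0.7, n = 3 each). ICM 15 and 22 lay below and ICM 25 above every TE library.

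The 9 nuclear genes without overlap fell in 4 of the 5 complexes, and their spread over the complexes was not tested. Complex II had 3 of its 4 and complex III 3 of its 6, while complex I had 2 of 30, complex V 1 of 13 tested and complex IV 0 of 9 tested, where 17.8% of all genes tested lay lower in ICM without overlap. Median log2 differences were -0.56 in complex II and -0.44 in complex III, -0.13 in complex I, -0.15 in complex IV and -0.33 in complex V.

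Complex II, or succinate dehydrogenase, links the chain to the tricarboxylic acid cycle and is wholly nuclear. SDHB, its iron-sulfur subunit, had 99.9, 99.9 and 62.2 RPKM in ICM and 129, 153 and 137 RPKM in TE (log2 difference -0.70 with an SE of 0.26, limma adjusted p = 0.22). SDHA, the flavoprotein that oxidises succinate, had 21.2, 28.6 and 19.02 RPKM in ICM and 31.8, 31.8 and 31.0 RPKM in TE. SDHC, a membrane anchor and the only one of the 4 with a higher mean in ICM, had 59.3, 46.8 and 32.7 RPKM in ICM and 38.2, 34.8 and 41.3 RPKM in TE.

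SDHD, the other anchor, had 19.3, 24.5 and 17.1 RPKM in ICM and 30.0, 30.0 and 37.9 RPKM in TE (log2 difference -0.67, limma adjusted p = 0.21). Its row runs from 3302224 to 3302644 on chromosome 14, barely more than its length of 405 bases, and of 52 nuclear symbols found in the reference's name table it was the only one listed there on another chromosome. Whether the row is the gene or a copy of it is therefore uncertain.

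In complex III the subunits without overlap were UQCRC1, CYC1 and UQCRC2, while the other nuclear ones, UQCRFS1 among them, overlapped. UQCRC1, a core protein, had 45.3, 53.03 and 24.4 RPKM in ICM and 63.0, 71.8 and 82.7 RPKM in TE (log2 difference -0.87 with an SE of 0.32, limma adjusted p = 0.21). It was also under 0.05 in the authors' deposited table, at a DESeq adjusted p of 0.016. CYC1, the cytochrome c1 that passes electrons on to cytochrome c, had 87.7, 121 and 85.4 RPKM in ICM and 141, 153 and 162 RPKM in TE (log2 difference -0.64, limma adjusted p = 0.22).

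UQCRC2, the other core protein, was at 83.8 ± 25.9 RPKM in ICM and 110 ± 6.32 RPKM in TE. UQCRH, the hinge protein, was the most abundant nuclear gene of the complex, with 221, 442 and 169 RPKM in ICM and 277, 265 and 411 RPKM in TE. UQCRB, at the quinone site, was the lowest, with 41.0, 44.7 and 15.5 RPKM in ICM and 31.4, 32.3 and 56.6 RPKM in TE. Both overlapped.

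Complex I had 7 nuclear core subunits, which carry the flavin and the iron-sulfur clusters, and 23 accessory ones. Their median log2 differences were close, -0.14 for the core and -0.12 for the accessory subunits. NDUFV2, a core iron-sulfur protein next to the flavin, had 27.7, 33.3 and 16.7 RPKM in ICM and 46.7, 35.1 and 47.2 RPKM in TE, without overlap (log2 difference -0.75 with an SE of 0.30, limma adjusted p = 0.25). Its DESeq adjusted p in the authors' deposited table was 0.0415. NDUFA10, an accessory subunit related to nucleoside kinases, had 41.5, 54.0 and 36.8 RPKM in ICM and 65.5, 55.4 and 66.4 RPKM in TE.

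Levels within complex I spanned a wide range. NDUFA4 had the highest mean of the 30 genes, with 236, 283 and 159 RPKM in ICM and 188, 169 and 259 RPKM in TE. NDUFA3 had the lowest, with 5.87, 11.8 and 3.48 RPKM in ICM and 4.90, 4.62 and 9.17 RPKM in TE. The median of the 30 means was 25.3 RPKM.

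Complex IV had 0 of 9 genes tested without overlap between the tissues. Its common subunits COX4I1 (153, 244 and 90.1 RPKM in ICM, and 147, 152 and 219 RPKM in TE) and COX6B1 (151, 258 and 106 RPKM in ICM, and 151, 148 and 219 RPKM in TE) were close in mean. COX7A2, the form of subunit 7a found in most tissues, had the highest mean of its nuclear genes, with 303, 308 and 161 RPKM in ICM and 246, 250 and 337 RPKM in TE. COX7A1, the form typical of heart and muscle in mammals, was much lower, with 6.53, 16.3 and 5.45 RPKM in ICM and 2.93, 4.86 and 7.64 RPKM in TE. It made up 3.47% ± 1.47 of the summed RPKM of the pair in ICM and 1.77% ± 0.54 in TE (n = 3 each; two-sided exact permutation p = 0.2, adjusted over 2 isoform tests 0.2). The difference of 1.70 percentage points was 0.92 without ICM 22.

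COX7B2 and COX8C, known from testis in human, were low. COX7B2 had 4.03, 9.93 and 3.75 RPKM in ICM and 5.98, 4.72 and 5.84 RPKM in TE, in a row of 243 bases without introns. COX8C had 8, 20 and 8 reads in ICM and 10, 13 and 21 reads in TE and stayed below the filter. COX6C, which belongs to the complex in all tissues, was also low here, at 2.13 ± 0.85 RPKM in ICM and 2.68 ± 0.39 RPKM in TE. It was picked out after its values were seen.

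In complex V the b subunit of the outer stalk, ATP5F1 (chromosome 5, 56905428 to 56918714, build not named), had the smallest p of all 77 genes. It had 128, 126 and 109 RPKM in ICM and 192, 226 and 209 RPKM in TE, and it was the only nuclear gene of the complex without overlap. The log2 difference was -0.78 (SE 0.22, limma adjusted p = 0.12), and its DESeq adjusted p in the authors' deposited table was 0.026. Without ICM 25 it was called lower in ICM (log2 difference -0.71, limma adjusted p = 0.038). ATP5B, the catalytic beta subunit, was the most abundant nuclear gene of the chain, at 984, 1034 and 704 RPKM in ICM and 942, 1071 and 1162 RPKM in TE. The stalk and membrane subunits, 8 genes, all had lower fitted means of log2(RPKM + 1) in ICM (median log2 difference -0.37, and 0.06 without ICM 25; ATP5G2 also turned with both rescalings), and the 4 genes of the F1 head had a median of -0.24, and -0.018 without ICM 25. ATP5S, the lowest row of the group, had 29, 9 and 19 reads in ICM and 12, 14 and 22 reads in TE and stayed below the filter.

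The c subunit, which forms the rotating ring, is encoded by 3 nuclear genes whose mature proteins are the same. ATP5G3 was the main source, with 611, 609 and 279 RPKM in ICM and 611, 759 and 787 RPKM in TE. ATP5G1 had 318, 264 and 102 RPKM in ICM and 238, 259 and 322 RPKM in TE, and ATP5G2 had 109, 92.0 and 84.0 RPKM in ICM and 94.4, 96.0 and 114 RPKM in TE. ATP5G2 made up 10.502%, 9.53% and 18.1% of the summed RPKM of the 3 genes in ICM and 10.01%, 8.63% and 9.36% in TE (means 12.7% ± 4.66 in ICM and 9.33% ± 0.69 in TE, with n = 3 each; two-sided exact permutation p = 0.2, adjusted over 2 isoform tests 0.2). The higher ICM mean rested on ICM 25, where ATP5G3 and ATP5G1 lay further below the other ICM libraries than ATP5G2 did. Without it, ICM exceeded TE by 0.69 percentage points, against 3.36 with it.

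**Figure D4:**
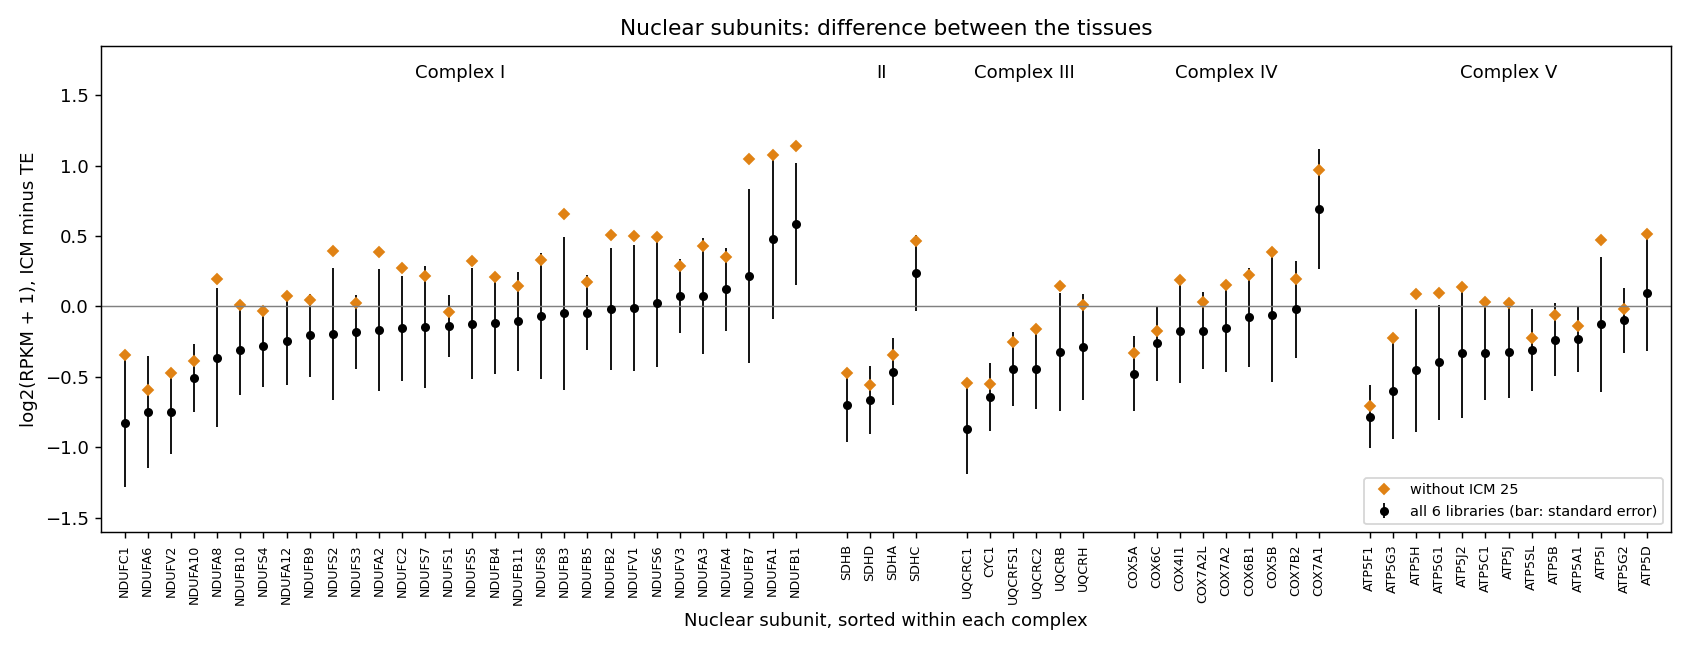
Log2 difference (ICM minus TE) of the 62 nuclear genes tested, sorted within each complex, with all 6 libraries (black, bar for the standard error) and without ICM 25 (orange). Without ICM 25 most complex I genes lie above 0, and SDHA, SDHB, SDHD, UQCRC1, CYC1 and ATP5F1 stay below it.

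The nuclear result depended on 1 library. ICM 25 was below both ICM 15 and 22 in 60 of 62 nuclear genes, beside 61.7% of all genes tested, and it was the lowest of all 6 libraries in 58 of 62, beside 50.9%. The median log2 ratio of ICM 25 to the mean of ICM 15 and 22 was -0.99 for nuclear subunits, -0.55 for all genes tested and 0.09 for mitochondrial genes. It was -2.82 for NDUFB7, -2.05 for NDUFA1 and -1.76 for NDUFB1. The median SD within ICM was 0.65 log2 units for nuclear subunits, 0.44 for all genes tested and 0.17 for mitochondrial genes, and within TE it was 0.23, 0.19 and 0.32.

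The ratio of ICM 25 also ran with gene length within the nuclear subunits. Its median was -1.01 for the 51 tested under 1000 bases and -0.52 for the 11 of 1000 bases or more, beside -0.66 and -0.51 for all genes tested split in the same way. Across the 62 genes, which share their libraries and are not independent, Spearman's rho of length and ratio was 0.43, and across 9429 genes it was 0.09. The factor by which median of ratios rescaling divides a library was 0.77 for ICM 25 and 1.02 to 1.14 for the other libraries. The part of this scale, of length, of the low epiblast and hypoblast marker sums in ICM 25, or of RNA quality was not tested.

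**Figure D5:**
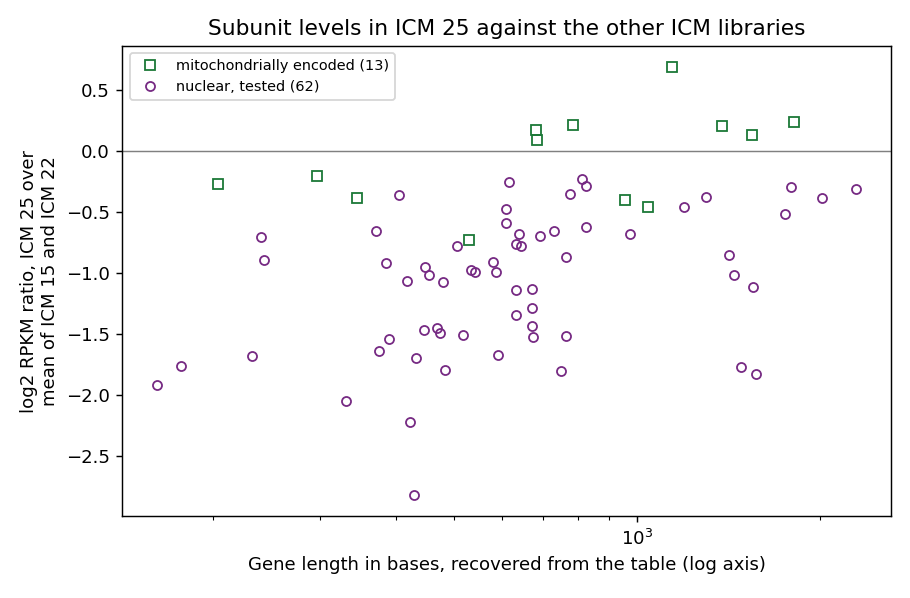
Log2 RPKM ratio of ICM 25 to the mean of ICM 15 and 22 against gene length (log axis) for 62 nuclear and 13 mitochondrial genes. All 62 nuclear genes lie below 0, from -0.23 down to -2.82, and the mitochondrial genes lie between -0.73 and 0.68.

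Without ICM 25 the median of the nuclear subunits turned to 0.12, beside -0.01 over all genes tested, with 41 of 62 higher in ICM, while that of the mitochondrial genes was -0.48 with 13 of 13 lower. By this fit, which rests on 2 ICM libraries, 2 nuclear genes were called higher in ICM and 1, ATP5F1, lower (limma, where 5.89% and 5.62% of all genes were called). Those higher in ICM were accessory subunits of complex I. NDUFB1 had 36.2, 36.9 and 10.8 RPKM in ICM and 17.5, 15.02 and 15.6 RPKM in TE (log2 difference without ICM 25 1.14, limma adjusted p = 0.0075). NDUFB7 had 20.1, 30.4 and 3.57 RPKM in ICM and 9.10, 10.9 and 15.1 RPKM in TE (1.04, limma adjusted p = 0.040). Both were singled out after this fit was seen. In both genes ICM 25 lay below every TE library. With all libraries the log2 differences were 0.58 for NDUFB1 and 0.21 for NDUFB7 (limma adjusted p = 0.55 and 0.90). The median without ICM 25 was 0.24 in complex I, 0.19 in complex IV and 0.03 in complex V, but -0.41 in complex II and -0.21 in complex III.

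Genes around the chain were counted from 5 lists, to be read beside the values over all genes tested. These were a median of -0.15, and 11.6% lower in ICM at an unadjusted limma p under 0.05. Without ICM 25 the median over all genes was -0.01, and limma called 5.89% higher and 5.62% lower in ICM. Of 40 assembly factors tested, 0 were called and 4 had an unadjusted p under 0.05 (limma), all lower in ICM, with a median log2 difference of -0.30 (-0.07 without ICM 25). They were led by LYRM7 and COA6. LYRM7, a complex III assembly factor, had 0.27, 1.97 and 1.08 RPKM in ICM and 2.38, 4.26 and 1.93 RPKM in TE. COA6, a copper factor of complex IV, had 18.3, 15.9 and 5.56 RPKM in ICM and 29.9, 19.6 and 23.4 RPKM in TE. LYRM7 overlapped between the tissues and COA6 did not. ATPAF1, which assembles the F1 head of ATP synthase, had 18.8, 25.8 and 31.9 RPKM in ICM and 33.8, 38.5 and 43.3 RPKM in TE. Without ICM 25, the fit for which these 3 genes were picked out, it was called lower in ICM (limma adjusted p = 0.046), and 2 assembly factors were called higher, TMEM70 (20.96, 17.6 and 3.67 RPKM in ICM, 8.54, 5.28 and 7.74 RPKM in TE) and COA1 (5.96, 5.61 and 1.49 RPKM in ICM, 2.92, 2.65 and 3.09 RPKM in TE).

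Of 17 genes for electron carriers and other quinone enzymes, 0 were called (limma), and at an unadjusted p under 0.05, 2 were lower in ICM and 1 higher. Their median log2 difference was -0.09 (0.04 without ICM 25). COQ9, needed for coenzyme Q synthesis, had 11.1, 11.7 and 6.10 RPKM in ICM and 20.1, 16.9 and 19.9 RPKM in TE (log2 difference -0.96 with an SE of 0.28, limma adjusted p = 0.14, and 0.043 without ICM 25). DHODH, which feeds electrons from pyrimidine synthesis into the quinone pool, had 2.28, 6.16 and 4.66 RPKM in ICM and 7.36, 7.52 and 7.62 RPKM in TE.

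Genes that maintain and transcribe mitochondrial DNA, 25 tested, had a median log2 difference of -0.28 (0.03 without ICM 25), with 0 called and 4 at an unadjusted p under 0.05, all lower in ICM (limma). C10orf2, the mitochondrial DNA helicase Twinkle, had 1.77, 2.58 and 1.68 RPKM in ICM and 4.73, 5.08 and 4.70 RPKM in TE (log2 difference -0.97 with an SE of 0.24, limma adjusted p = 0.081). TFB1M, a methyltransferase of mitochondrial ribosomal RNA, had 8.19, 10.1 and 3.51 RPKM in ICM and 14.0, 16.1 and 17.2 RPKM in TE (log2 difference -1.11 with an SE of 0.35, limma adjusted p = 0.15). Neither overlapped between the tissues. Without ICM 25, C10orf2 and TFB1M were called lower in ICM (limma adjusted p = 0.036 and 0.047), where 5.62% of all genes were.

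Of 12 regulators of mitochondrial gene expression, 0 were called (limma) and 4 had an unadjusted p under 0.05, all lower in ICM, with a median log2 difference of -0.57 (-0.34 without ICM 25). ESRRG, an orphan nuclear receptor that activates genes of oxidative metabolism, had 21.5, 16.6 and 4.36 RPKM in ICM and 51.03, 55.6 and 48.96 RPKM in TE (log2 difference -2.04 with an SE of 0.48, limma adjusted p = 0.074). It was called lower in ICM without ICM 25 (limma adjusted p = 0.0054), where 5.62% of all genes were. MYC had 1.89, 5.11 and 0.90 RPKM in ICM and 6.03, 7.25 and 10.8 RPKM in TE. Of 12 genes for prohibitins and cristae shape, 0 were called and 0 had an unadjusted p under 0.05 (limma), with a median log2 difference of -0.14 (-0.0081 without ICM 25). CHCHD3, of the MICOS complex that holds cristae junctions, had 41.4, 64.5 and 35.0 RPKM in ICM and 70.5, 64.1 and 75.5 RPKM in TE. STOML2 had 27.6, 30.7 and 17.0 RPKM in ICM and 34.3, 38.8 and 37.0 RPKM in TE. CHCHD3 overlapped between the tissues and STOML2 did not.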

How the data were processed

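The authors deposited 1 table whose 6 library columns are RPKM, per the file headers. The authors used FastQC and DESeq, per the submitters' processing notes. For the aligner, counter, build, annotation and strand, no statement is given in the sources used here. A column of the deposited table, baseMean, so named per the file headers, was read as the mean normalized signal over the libraries, and the authors' deposited adjusted p-value was copied where named. RPKM and baseMean gave back whole reads (tolerance 0.001) for 100% of values up to 1000 reads, and gene lengths. The cDNA was amplified (Picopure RNA, Nugen Ovation, TruSeq DNA), and no molecular identifiers are described.

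The 9436 genes that reached 1 RPKM in 3 or more libraries were fitted as log2(RPKM + 1) with limma 3.58.1 in R 4.3.3 (eBayes with trend, two-sided, Benjamini-Hochberg over all genes at 0.05), ICM minus TE. This scale understates the change of low genes. The fit was tested on simulated data. Sums were compared by exact permutation. Members and lists were chosen with earlier results of these data known. Values in every library were given for mitochondrial genes, for members without overlap among the 3 smallest p of their complex, for the highest and lowest member of each complex, for isoform pairs and for the 2 smallest p of each pathway list. SDHC, UQCRC2, COX6C, NDUFA1, NDUFB1, NDUFB7, ATPAF1, TMEM70 and COA1 were added after their values were seen. Alternatives were other pseudocounts, filters, scalings, library weights, voom and leaving out each library. Reads shared with nuclear copies of mitochondrial sequence could not be set apart. Of the nuclear symbols, 52 of 64 matched the TB-T2T gene table, used for names only.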

Additional observations from a re-analysis of the deposited data

How the results depend on the processing

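Calls over all genes were 176 with all libraries, 112 with a pseudocount of 0.1 RPKM, 114 unfiltered, 81 when filtered at 5 RPKM, 760 with library weights, and 0 to 1086 with 1 library left out (18 without ICM 15, 76 without ICM 22, 1086 without ICM 25, 0 without TE 16 and 1 without TE 23 or TE 24). Nuclear subunits called were 0 in the main comparison, 1 (NDUFB1) with library weights and 0 to 3 with 1 library left out; mitochondrial ones were 0 throughout. Limma's voom on the recovered reads, chosen after seeing the data, called 0 of either. The nuclear median of -0.19 was 0.10 with library weights and -0.49 to 0.12 with 1 library left out. The mitochondrial median of -0.44 stayed at -0.29 to -0.55 in the settings tried. The mitochondrial to nuclear ratio (ICM minus TE, -0.81) was -2.21 without ICM 25 and turned to 0.16 without ICM 22. None of the shares could pass the threshold with 3 against 3 libraries.

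Some genes that were not called with all libraries changed sign. With median of ratios rescaling and quantile normalization, ATP5G2 was at 0.046 and 0.074, COX6B1 at 0.067 and 0.045 and COX7B2 at 0.094 and 0.11; with quantile normalization MT-CO3 was at 0.042 and MT-ND1 at 0.11. With library weights COX4I1 was at 0.20, COX6B1 at 0.26, COX7A2 at 0.12, COX7B2 at 0.24, UQCRB at 0.12 and UQCRH at 0.075. With 1 library left out, the log2 difference ran from -0.71 to 0.099 for ATP5G1, -0.53 to 0.19 for COX4I1, -0.42 to 0.22 for COX6B1, -0.31 to 0.15 for COX7A2, -0.41 to 0.19 for COX7B2, -0.51 to 0.056 for MT-ND2, -0.33 to 0.43 for NDUFA3, -0.060 to 0.35 for NDUFA4, -0.35 to 1.04 for NDUFB7, -0.59 to 0.15 for UQCRB and -0.68 to 0.0083 for UQCRH. The cause was not tested. The planned count-model tests were not run, since the table holds RPKM. No paired analysis was made, because the labels do not state whether any ICM and TE came from the same blastocyst.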
